A study of Mus musculus with 9 samples.

Results

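Genes switched on by type I interferon were followed in regulatory T cells (Tregs) from the heart and from lymphoid organs of mice after injury to the heart. A list of 34 symbols of known interferon-induced genes was looked up in a table of read counts, and all 34 were found among its 49510 gene rows. All 34 also passed the filter on low counts, which left 16609 genes to be tested. The cells came from 8-week-old Foxp3-GFP mice, in which a green fluorescent protein marks cells that make Foxp3, the transcription factor of the Treg lineage. Every animal had undergone ischemia/reperfusion (I/R) injury of the heart 3 days earlier, in which blood flow is stopped and restored, so all comparisons were between organs and none was with uninjured mice. Tregs labelled as heart, spleen or mediastinal lymph node (MLN, the node that drains the heart) gave 3 RNA sequencing libraries per organ. Nothing in the labels tells whether the 3 libraries are separate animals or pools, and p-values here reflect only the spread among the libraries, which may be partly technical.

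Type I interferons, of which interferon beta and the interferon alphas are the best known, bind a receptor made of IFNAR1 and IFNAR2. The receptor's kinases activate STAT proteins, which join IRF9 in a complex that enters the nucleus and binds a short element in the promoters of its target genes. The targets include sensors of viral RNA, enzymes that block viral replication, and proteins that shut the signal off again. In T cells the same genes are read as a trace of exposure to interferon, and some of them also respond to interferon gamma or directly to interferon regulatory factors.

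Because the element bound by the STAT-IRF9 complex is what these genes are known to share, promoter sequence was examined first. RefSeq promoter windows of mouse build GRCm38.p6, from 250 bases before to 50 bases after a gene start, were available here for 25 of the 34 members, some with more than 1 start, giving 30 windows. Dhx58, Ifi27l2a, Mx1, Mx2, Oas2, Parp14, Rtp4, Usp18 and Zbp1 were not examined. Each window was searched for GAAANNGAAA or its reverse complement TTTCNNTTTC, where N is any base. The letters occurred in 15 of the 30 windows (50%), against 3.44% of all 32851 windows in the same table. Counted by gene, 14 of the 25 members had a match. For Ifih1, Ddx58 and Eif2ak2 the only match began after the gene start. At least 2 matches, which may overlap, occurred in a window of 6 members. Of all windows 0.225% held as many, a share of windows and not of genes. The pair of windows of Ifit2 held no match, which says only that these letters were not in this stretch. The 9 sequences below are 80-base pieces upstream of the gene start, read 5′ to 3′ on the strand of the gene. They cover the IFIT, OAS and ISG15 families, the effectors Rsad2 and Bst2 and the signalling gene Stat2, and capitals mark the matches.
Ifit1 (chr19:34640760-34640839, + strand): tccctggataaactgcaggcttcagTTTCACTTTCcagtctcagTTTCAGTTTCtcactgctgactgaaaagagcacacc
Ifit3 (chr19:34583355-34583434, + strand): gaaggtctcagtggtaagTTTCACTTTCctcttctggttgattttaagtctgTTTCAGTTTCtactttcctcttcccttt
Ifit3b (chr19:34607751-34607830, + strand): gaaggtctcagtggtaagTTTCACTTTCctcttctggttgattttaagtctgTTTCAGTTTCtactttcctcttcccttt
Isg15 (chr4:156200846-156200925, - strand): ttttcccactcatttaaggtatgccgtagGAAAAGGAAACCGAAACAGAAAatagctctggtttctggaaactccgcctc
Oas1a (chr5:120907526-120907605, - strand): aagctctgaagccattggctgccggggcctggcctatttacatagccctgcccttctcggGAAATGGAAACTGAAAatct
Oas3 (chr5:120777690-120777769, - strand): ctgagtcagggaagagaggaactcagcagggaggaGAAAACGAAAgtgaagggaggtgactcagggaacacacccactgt
Rsad2 (chr12:26456528-26456607, - strand): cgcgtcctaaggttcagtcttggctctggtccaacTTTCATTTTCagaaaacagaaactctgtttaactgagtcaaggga
Bst2 (chr8:71537555-71537634, - strand): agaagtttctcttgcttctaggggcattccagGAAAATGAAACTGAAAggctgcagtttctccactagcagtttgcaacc
Stat2 (chr10:128270248-128270327, + strand): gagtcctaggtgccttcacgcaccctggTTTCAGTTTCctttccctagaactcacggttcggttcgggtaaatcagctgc

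In Oas1a the first match begins 20 bases before the gene start, in Oas3 75 bases, in Isg15 78 bases, in Ifit1 104 bases, in Rsad2 120 bases, in Bst2 130 bases, in Ifit3 156 bases, in Ifit3b 188 bases and in Stat2 222 bases. Isg15 carries 3 overlapping matches in 1 run. The pieces shown for the neighbouring genes Ifit3 and Ifit3b are letter for letter the same, and these genes also share transcript sequence. Of the 50-base words in the transcripts of Ifit3, 51.2% occur in Ifit3b. Likewise 57.6% of the words of Oas1a occur in Oas1g, its neighbour in the OAS cluster, so reads of Ifit3, Ifit3b and Oas1a may have been split between copies or dropped, and their levels are uncertain.

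Depth was high and even, at 156194012 to 267520538 counts per library. The error from counting reads was therefore small beside the spread within an organ, whose median biological coefficient of variation was 102%. That error leaves out that PCR copies are not independent molecules. Of each organ 1 library stood apart from the other two, with scaling factors of 1.24 in spleen 3, 1.17 in MLN 3 and 1.11 in heart 2, and counts that change without these 3 are given so. Levels below are CPM, read counts of a gene brought to a common, scaled library total, and errors are SD over 3 libraries. Foxp3 itself stood at 31.2, 32.6 and 187 CPM in spleen libraries 1, 2 and 3, at 42.4, 41.8 and 46.3 CPM in MLN and at 8.77, 38.0 and 0.240 CPM in heart. The label of heart library 3 as Tregs thus goes with very little Foxp3 RNA. The 10 Treg identity genes together took 0.0867 to 0.168% of counts in heart against 0.294 to 0.420% in the lymphoid libraries. In bulk RNA of this kind, fewer cells of a type and less RNA per cell cannot be told apart.

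Between heart and spleen Tregs a few interferon response genes lay apart, a share no larger than that of all genes when both directions are counted. None passed the test. Of the 34 genes, 0 were called changed by the edgeR quasi-likelihood test at an adjusted p below 0.05, where 0.789% of all tested genes were called. At an unadjusted p below 0.05 stood 3 of the 34 (8.82%), against 13.6% of all genes. All 3 were at a higher level in heart, where 9.01% of all genes were: the RNA-binding protein gene Ifit2, the RNA sensor gene Ifih1 and the OAS-like gene Oasl1. The heart libraries lay entirely above the spleen libraries for 5 members (14.7%), namely Ifit2, Ifih1, Rsad2, Oas2 and Oasl2, against 12.4% of all genes in this direction, and entirely below for 0 of 34, against 6.9% (both directions 19.3%). Positive differences were fitted for 22 members, or 64.7%, against 50.9% of all genes, and the members' median log2 difference was 0.33 against 0.02 for all genes. Without spleen library 2 that median was -0.12, and without spleen library 1 it was 1.11. DESeq2 called 2 members, Ifih1 and Ifit2, where it called 11.9% of all genes. Rsad2 was called by limma-voom, which called 6.87% of all genes, and Ifit2 by edgeR with a stricter filter, which called 1.19%. Without spleen 3, MLN 3 and heart 2, heart and spleen did not overlap for 10 members, 7 above and 3 below, against 26.5% and 19.1% of all genes.

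Against the MLN, members lay on both sides, and again none passed the test. The edgeR test called 0 of 34, where 1.38% of all genes were called, and 5 (14.7%) had an unadjusted p below 0.05 against 15.5% of all genes. Oasl1, Ifih1 and Isg15 were the 3 of these at a higher level in heart (8.82%, against 10.3%), and Samhd1 and Usp18 the 2 at a higher level in MLN (5.88%, against 5.23%). Libraries of the organs did not overlap for 11 members (32.4%, against 26.2% of all genes). Of these, 7 were above the MLN in heart (20.6%, against 14.9%): Oasl1, Ifih1, Isg15, Rsad2, Oasl2, Mx1 and Slfn5. The other 4 were below it (11.8%, against 11.2%): Samhd1, Usp18, Ifi35 and Isg20. Positive differences were fitted for 21 members (61.8%, against 53.5%), and the median log2 difference was 0.48 against 0.12 for all genes. Both contrasts use the same heart libraries, so they are not independent. DESeq2 called 3 members, Ifih1, Isg15 and Oasl1, where it called 14.0% of all genes, and limma-voom called 0, where it called 8.02%. Without spleen 3, MLN 3 and heart 2, the 4 libraries left in heart and MLN did not overlap for 24 members, 18 above and 6 below, against 28.2% and 24.5% of all genes.

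Between the lymphoid organs Ifit2 lay apart when all libraries were used. The edgeR test called 0 of 34, as it called 0.0% of all genes, and 1 member, Ifit2, had an unadjusted p below 0.05 (2.94%, against 5.75% of all genes). Ifit2 was also the 1 member whose MLN and spleen libraries did not overlap, where 9.08% of all genes did not. Without spleen 3, MLN 3 and heart 2 there were 6 such members, 5 above and 1 below, against 18.3% and 15.4% of all genes. DESeq2 called Ifit2, where it called 4.94% of all genes, and limma-voom called 0 members, where it called 0.0181%. Positive differences were fitted for 21 members (61.8%, against 47.5%). The median log2 difference of the members, MLN over spleen, was 0.11 against 0.00 for all genes, and without spleen libraries 1 and 2 in turn it was 0.81 and -0.29.

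**Figure D1:**
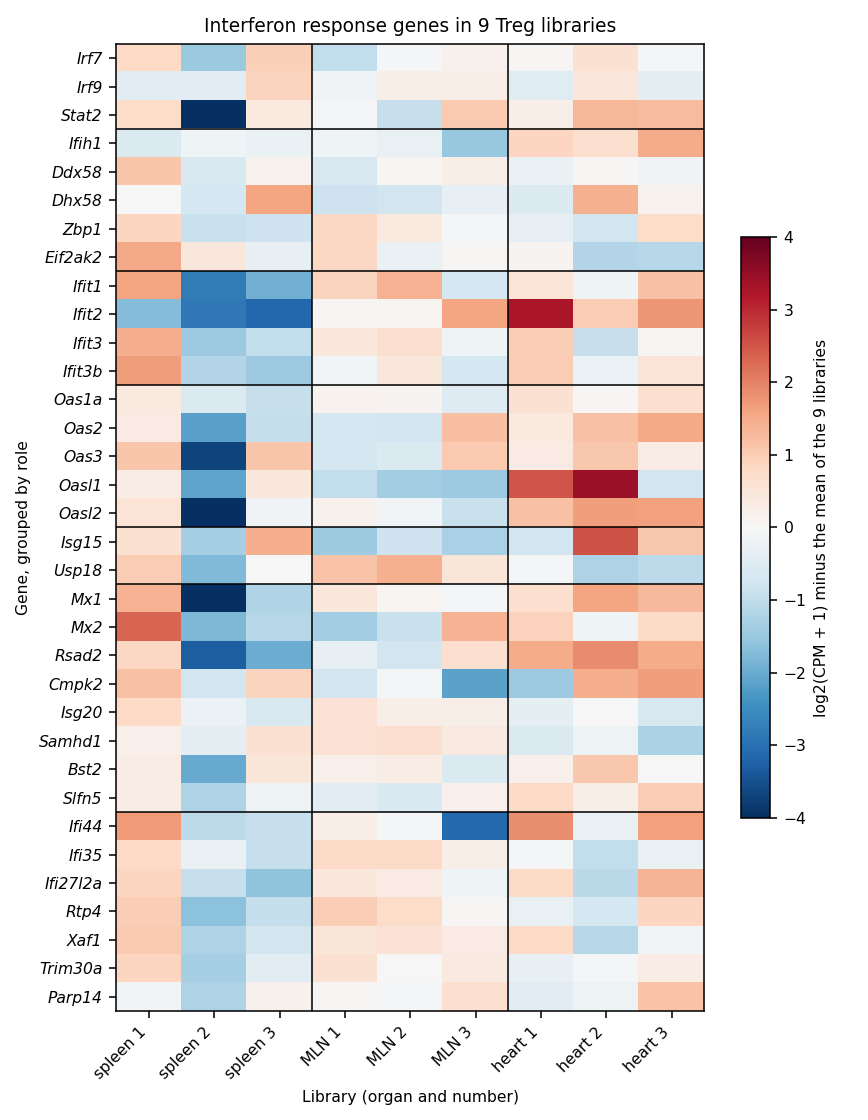
Heat map of the 34 interferon response genes (rows, grouped by role) in the 9 Treg libraries (columns); colour gives log2(CPM + 1) minus the gene's mean over the 9 libraries. Spleen 2 is blue and spleen 1 red down most of the map, while heart libraries are red for Ifih1, Ifit2, Rsad2 and Oasl2 and pale or blue for Eif2ak2, Samhd1 and Isg20.

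**Figure D2:**
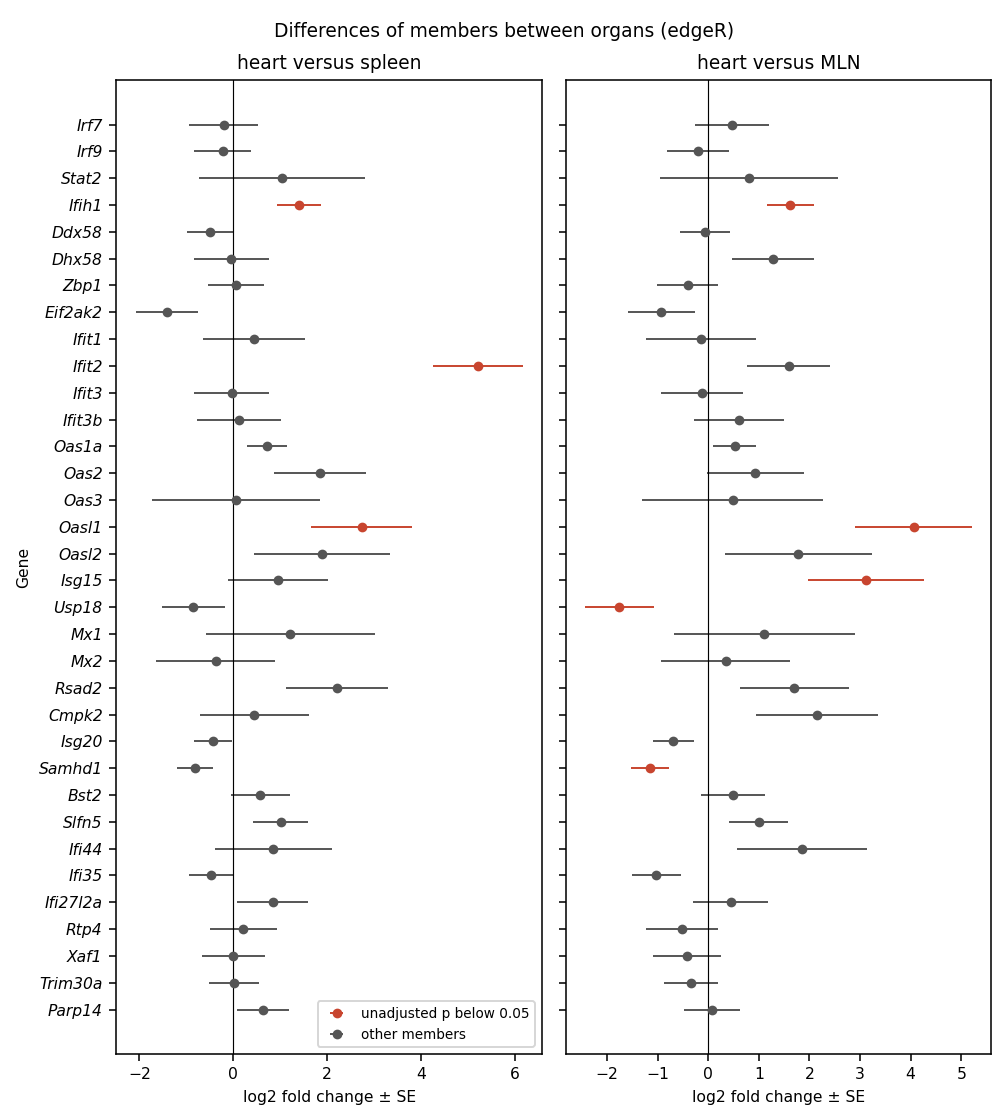
Log2 fold change (points) with its standard error (bars) for each gene, heart over spleen on the left and heart over MLN on the right, from the edgeR model; red marks an unadjusted p below 0.05. Ifit2 lies farthest right against spleen at 5.22, and Oasl1 against MLN at 4.06, while Usp18 lies farthest left against MLN at -1.76.

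Transcription factors and signalling came first by role. Irf7 encodes the factor that amplifies interferon production, Irf9 the DNA-binding part of the STAT complex, and Stat2 the STAT specific to interferon signalling. None of the 3 had an unadjusted p below 0.05 in any comparison. Irf7 ranged from 5.04 CPM in spleen 2 to 31.9 CPM in spleen 3, and Irf9 from 10.5 to 28.6 CPM, so that most of their range lay within the spleen. Stat2 had no count in spleen 2, while it stood at 26.8 and 21.0 CPM in spleen libraries 1 and 3 and at 32.8 ± 11.8 CPM (SD, n = 3) in heart.

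Among the 5 sensors, 1 had an unadjusted p below 0.05. Ifih1, on chromosome 2 (chr2:62595798-62646255, - strand), encodes MDA5, which detects long double-stranded RNA in the cytosol. Its level was 27.5, 37.0 and 34.6 CPM in spleen libraries 1, 2 and 3, 37.0, 33.6 and 14.0 CPM in MLN, and 76.9, 65.2 and 119 CPM in heart. All 3 heart libraries lay above all 6 lymphoid libraries. The difference was 2.64-fold over spleen (log2 1.40, SE 0.47, edgeR adjusted p = 0.212) and 3.08-fold over MLN (log2 1.62, SE 0.47, edgeR adjusted p = 0.127). Neither passed the threshold. Over the 18 alternative settings the adjusted p ran from 0.0272 to 0.467 against spleen and from 0.00424 to 0.333 against MLN, and DESeq2 was the 1 setting that called each.

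The other 4 sensors did not follow Ifih1. Ddx58, which encodes RIG-I, the sensor of short viral RNA ends, stood at 70.5 ± 41.8 CPM in spleen, 52.4 ± 15.7 in MLN and 50 ± 5.89 in heart. Dhx58, which encodes the regulator LGP2 of the same protein family, was above 30 CPM in 2 libraries, spleen 3 at 42.3 CPM and heart 2 at 37.6 CPM, and below 15 CPM in the others. Eif2ak2, which encodes the kinase PKR that halts translation on double-stranded RNA, had its highest mean in spleen (40.5 ± 26.5 CPM) and its lowest in heart (15.2 ± 8.88 CPM), with an edgeR adjusted p of 0.404. The nucleic acid sensor Zbp1 ranged from 67.0 to 227 CPM with overlap of all organs.

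The IFIT genes lie side by side on chromosome 19 and encode proteins that bind foreign RNA and block its translation. Ifit2 (chr19:34550694-34576419, + strand) showed the widest difference of any of the 34 genes. It stood at 4.95, 1.75 and 1.23 CPM in spleen, 19.3, 20.1 and 58.8 CPM in MLN, and 190.0, 38.9 and 65.8 CPM in heart. The spleen libraries lay below all others, while MLN and heart overlapped. Heart was 37.2-fold above spleen (log2 5.22, SE 0.95, edgeR adjusted p = 0.0543), just outside the threshold. That fold was 19.8 without heart 1 and 65.9 without spleen 1. The edgeR adjusted p for MLN over spleen was 0.839 at a 12.4-fold difference (7.46-fold without MLN 3, 22.0-fold without spleen 1). For heart over MLN it was 0.407 at 3.00-fold (1.60-fold without heart 1, 4.98-fold without MLN 3). Heart over spleen was called in 2 of 18 alternatives, DESeq2 (adjusted p = 3.05e-08) and the stricter filter on counts in edgeR (adjusted p = 0.0458), and its highest adjusted p was 0.245.

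With all libraries used, the neighbours of Ifit2 did not share its pattern. Ifit1 was at 190.4 CPM in spleen 1 but 8.23 and 15.9 CPM in spleen 2 and 3, at 117, 167 and 38.5 CPM in MLN and at 91.4, 56.3 and 143 CPM in heart. Spleen thus held both its highest and its lowest library. Ifit3, 134 ± 149.8 CPM in spleen, 143 ± 41.4 in MLN and 131 ± 82.0 in heart, had nearly equal means. Its near copy Ifit3b ranged from 7.60 to 74.0 CPM, both in spleen. Without spleen 1 all 4 IFIT genes had positive differences over spleen, with median log2 2.48 for heart and 2.37 for MLN. Without spleen 2 positive differences over spleen were left for 1 of 4 in heart (median -0.17) and 2 of 4 in MLN (median -0.15).

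The OAS family encodes enzymes that, on double-stranded RNA, make a messenger that activates the ribonuclease RNase L, and related proteins without that activity. All 5 members had positive log2 differences for heart over spleen, with a median of 1.85, and for heart over MLN, with a median of 0.93, none called. The difference of Oas3 against spleen was negative with scaling by total counts alone (log2 -0.19), without spleen 2 (-0.50) and without heart 2 (-0.25). Oasl1 (chr5:114923240-114937915, + strand), which in mice restrains translation of Irf7, stood at 15.4, 2.10 and 16.8 CPM in spleen, 5.76, 4.09 and 3.85 CPM in MLN and 76.0, 145 and 6.98 CPM in heart. Heart libraries 1 and 2 lay above all others, while heart library 3 lay within the spleen range. The difference was 16.7-fold over MLN (log2 4.06, SE 1.15, edgeR adjusted p = 0.121) and 6.66-fold over spleen (log2 2.74, SE 1.09, edgeR adjusted p = 0.314). Without heart 2 these folds were 9.06 and 3.63, and without heart 3 they were 24.2 and 9.69. Over the alternatives the adjusted p against MLN ran from 0.00113 with DESeq2, which called it, to 0.403. Gm13822, an antisense gene with 24483 counts over all libraries, covers 1.5% of the exon bases of Oasl1. Reads of that stretch cannot be told apart unless the counting used strand, which is not given in the sources used here.

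Oasl2, the neighbour of Oasl1 on chromosome 5, was steadier in heart. It stood at 37.5, 52.7 and 51.3 CPM there, at 18.2, 14.8 and 8.12 CPM in MLN, and at 23.7, 0.0236 and 14.3 CPM in spleen, where library 2 held 5 counts. All heart libraries lay above all others, with edgeR adjusted p of 0.747 against spleen and 0.686 against MLN. Oas2 was at 11.8, 1.31 and 4.38 CPM in spleen, at 5.33, 5.0 and 22.7 CPM in MLN and at 12.4, 22.2 and 28.4 CPM in heart, so that heart and spleen did not overlap, narrowly. Oas1a, the most abundant of the 5, averaged 112 ± 56.9 CPM in spleen, 129 ± 30.4 in MLN and 185 ± 41.3 in heart. Oas3 had no count in spleen 2 and stood between 6.98 and 27.2 CPM in the other 8 libraries.

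ISG15 is a ubiquitin-like protein that is induced by interferon and attached to other proteins. USP18 takes it off again and also blocks the interferon receptor. In heart against MLN the genes lay on opposite sides. Isg15 (chr4:156199424-156200818, - strand) was at 10.3, 1.96 and 19.3 CPM in spleen, 1.78, 3.19 and 2.04 CPM in MLN and 3.38, 43.1 and 14.7 CPM in heart. The MLN libraries were all low, and heart library 1 stood only just above them. Heart over MLN was 8.73-fold (log2 3.13, SE 1.14, edgeR adjusted p = 0.232, alternatives from 0.0171 with DESeq2 to 0.544), and it was 3.87-fold without heart 2 and 12.4-fold without heart 1. Usp18 (chr6:121245906-121270917, + strand) was at 405, 57.0 and 202 CPM in spleen, 435, 537 and 275 CPM in MLN and 189, 83.6 and 95.7 CPM in heart. Every heart library lay below every MLN library, with a difference of 3.38-fold (log2 -1.76, SE 0.68, edgeR adjusted p = 0.258), and the spleen spanned both. No alternative called Usp18 against MLN, where its adjusted p ran from 0.104 to 0.452. Gm44148, an antisense gene with 42247 counts over all libraries, covers 4.4% of the exon bases of Usp18. Whether the counting used strand is not given in the sources used here, so reads of that stretch are uncertain.

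Of the 8 other antiviral effectors, 0 were called by edgeR. For 5 the heart libraries did not overlap with MLN: Rsad2, Mx1 and Slfn5 above, Samhd1 and Isg20 below. Of all genes, 14.9% lay above and 11.2% below in this way. Rsad2 (chr12:26442746-26456452, - strand) encodes viperin, an enzyme that makes a chain-terminating nucleotide. It was at 36.6, 1.18 and 4.37 CPM in spleen, 15.9, 11.6 and 32.5 CPM in MLN and 58.5, 78.3 and 58.1 CPM in heart. The heart libraries lay close together and above all 6 others, and the spread lay in the lymphoid libraries. The difference was 4.63-fold over spleen (log2 2.21, SE 1.09, edgeR adjusted p = 0.435) and 3.24-fold over MLN (log2 1.70, SE 1.08, edgeR adjusted p = 0.546). Over spleen it was 23.4-fold without spleen 1 and 3.22-fold without spleen 2. Cmpk2, which supplies the substrate of viperin and is its neighbour on chromosome 12, did not share this order, with 1.58, 18.6 and 21.6 CPM in heart and 15.1, 3.18 and 12.3 CPM in spleen.

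Mx1, a dynamin-like restriction factor of influenza virus, was at 47.2, 0 and 6.83 CPM in spleen, 24.0, 18.1 and 16.1 CPM in MLN and 28.0, 53.6 and 43.9 CPM in heart. Heart and MLN did not overlap, and spleen held both the lowest library, with no count, and a library within the heart range. Mx2, annotated as a polymorphic pseudogene, ranged from 2.25 CPM in spleen 2 to 55.4 CPM in spleen 1. Slfn5 averaged 27.9 ± 7.43 CPM in heart, 14.0 ± 4.83 in MLN and 13.8 ± 7.0 in spleen, and its heart and MLN libraries were separated by a narrow gap. Its antisense gene Slfn5os covers 8.8% of its exon bases, and reads of this pair cannot be told apart unless the counting used strand, which is not given in the sources used here.

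Samhd1 (chr2:157097533-157135265, - strand), which encodes a phosphohydrolase that empties the cell of deoxynucleotides, was at 433, 296 and 574 CPM in spleen, 571, 593 and 491 CPM in MLN and 253, 332 and 158 CPM in heart. Its MLN libraries were close together and all above the heart libraries, a 2.23-fold lower level in heart (log2 -1.16, SE 0.38, edgeR adjusted p = 0.173, alternatives from 0.0819 to 0.402). Against spleen the difference was 1.75-fold in the same direction with overlap. Isg20, an exonuclease of single-stranded RNA, averaged 139 ± 31.2 CPM in heart and 224 ± 29.4 in MLN, also without overlap (edgeR adjusted p = 0.511). Bst2, which encodes tetherin, a protein that holds budding virus at the cell surface, was at 127, 25.0 and 144 CPM in spleen, 119.9, 126 and 69.2 CPM in MLN and 118, 221 and 105 CPM in heart, with overlap throughout.

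Of the 7 other interferon-induced genes, Ifi35 was the 1 whose organs did not overlap in a heart comparison. Heart and MLN libraries did not overlap for 26.2% of all genes. Ifi35 (chr11:101448407-101458698, + strand), an interferon-induced protein with a leucine zipper, was at 567, 271 and 169.6 CPM in spleen, 551, 558 and 383 CPM in MLN and 305, 162 and 263 CPM in heart. Heart lay below MLN in every library by 2.04-fold (log2 -1.03, SE 0.48, edgeR adjusted p = 0.354). An antisense gene, Gm11626, covers 16.8% of its exon bases, and whether the counting used strand is not given in the sources used here, so reads of the pair cannot be told apart. Ifi27l2a, which encodes a small hydrophobic interferon-induced protein, was the most abundant member, at 4209.5, 1227 and 767 CPM in spleen, 3145, 2957 and 2081 CPM in MLN and 4004, 1113 and 5991 CPM in heart. Its libraries differed several-fold within both spleen and heart. Rtp4, a chaperone of membrane receptors, was at 529, 85.5 and 137 CPM in spleen, 535, 442 and 276 CPM in MLN and 216, 165 and 490.4 CPM in heart. Trim30a, a ring-finger protein that dampens innate signalling, was at 829.6, 178 and 328 CPM in spleen, 693, 449 and 586 CPM in MLN and 361, 439 and 560.2 CPM in heart. For both of these genes the highest and lowest spleen libraries spanned most of the range. Xaf1, Parp14 and Ifi44, a pro-apoptotic factor, an ADP-ribosyltransferase and a gene of less known role, ranged from 55.9 to 275 CPM, from 24.4 to 129.7 CPM and from 0.464 to 44.9 CPM, each with overlap of all organs.

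**Figure D3:**
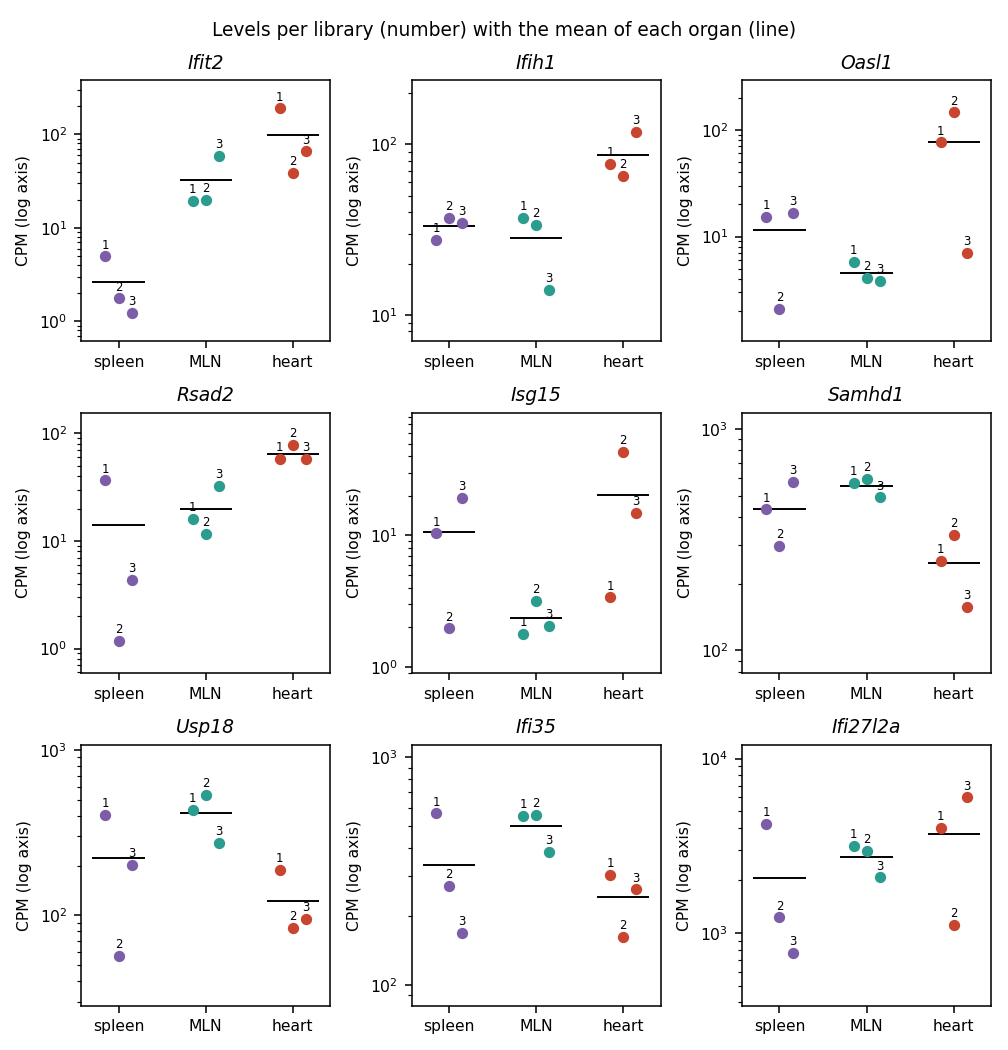
CPM of 9 interferon response genes in each library (points, numbered by library; log axes), with the mean of each organ as a line. Heart libraries lie above all 6 lymphoid libraries for Ifih1 and Rsad2 and below all MLN libraries for Samhd1, Usp18 and Ifi35, while heart library 3 of Oasl1 falls to 6.98 CPM.

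Compared per length of exons, Ifi27l2a stood far above the others at 6118 CPM per kilobase (mean of 9 libraries). Ifi35 at 208, Rtp4 at 150.0, Bst2 at 129.9 and Trim30a at 119.6 CPM per kilobase followed. Their SD over the 9 libraries were 94.8, 84.4, 58.9 and 48.3, and their order was not tested. Cmpk2 was lowest at 2.18 CPM per kilobase. With the mean length of a gene's transcripts in place of its exons, Usp18 entered the 5 most abundant and Bst2 fell to place 8. The 34 genes together took 0.927, 0.277 and 0.392% of counts in spleen libraries 1, 2 and 3, 0.730, 0.714 and 0.629% in MLN and 0.542, 0.433 and 0.776% in heart. The range of the spleen libraries held those of both other organs. Without Ifi27l2a the shares were 0.319 ± 0.179% in spleen, 0.409 ± 0.0201% in MLN and 0.278 ± 0.0342% in heart.

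The widest spread of the interferon genes was inside the spleen group. Spleen library 2 had the lowest level of all 9 libraries for 19 of the 34 genes (55.9%), while it was lowest for 8.9% of the 7801 tested genes with a mean of at least 10 CPM. Spleen library 1 had the highest level for 12 (35.3%), against 6.15% of those genes. Within the spleen alone, library 1 was highest and library 2 lowest for 25 genes each (73.5%, against 31.6% and 27.3%). The median gap between the lowest and the highest library of an organ was 2.45 on the log2 scale for the members in spleen, against 1.36 for genes of at least 10 CPM. In MLN it was 0.88 against 0.92, and in heart 1.11 against 1.47. Mx1, Oas3 and Stat2 had no count in spleen 2, a library of 209283548 counts, which allows up to 3 counts of each. These shares describe single libraries and carry no test.

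How many members lay apart from spleen, and their median difference, thus rested on which spleen library was in. The differences of single genes moved less for Ifit2 and Ifih1. With each library left out in turn, their log2 difference of heart over spleen ran from 4.31 to 6.04 and from 1.10 to 1.57. Without spleen 1, heart lay above the remaining spleen libraries for 16 of 34 members (47.1%, against 13.9% of all genes then tested), and so did MLN (47.1%, against 9.75%). Without spleen 2, heart lay above for 5 and below for 5 (14.7% each, against 14.3% and 9.82%), and MLN lay above for 1 and below for 7 (2.94% and 20.6%, against 7.02% and 8.56%). No member was called by edgeR in either case. Neither spleen 1 nor spleen 2 was among the libraries with a high scaling factor. Shares of macrophage and monocyte markers were 0.112% in spleen 1, 0.167% in spleen 2 and 0.336% in spleen 3, and shares of Treg identity genes 0.294, 0.329 and 0.420%. Their part in the spread of the interferon genes was not tested.

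**Figure D4:**
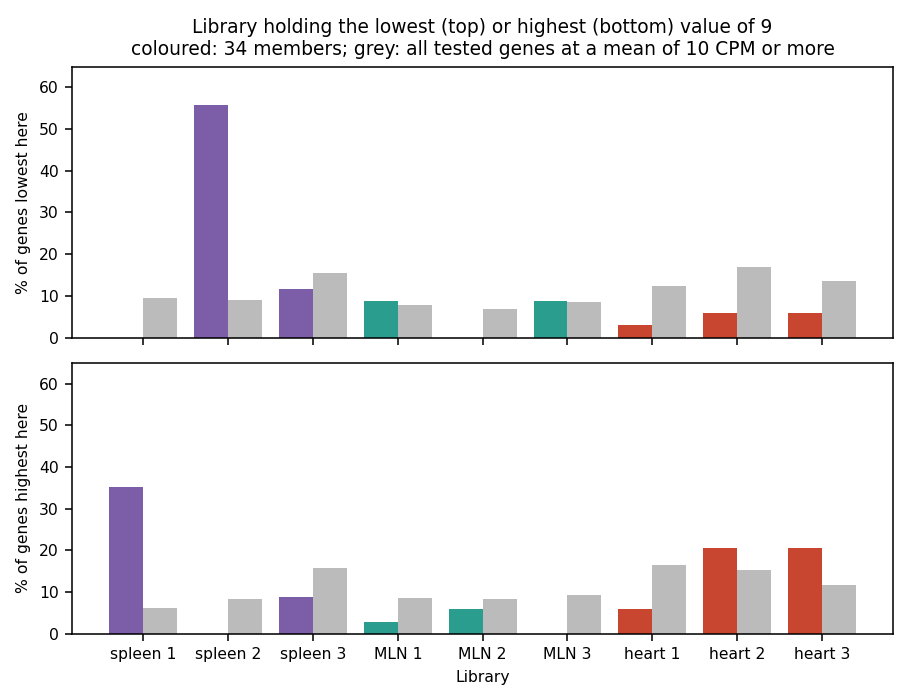
Share of genes whose lowest (top) or highest (bottom) level of the 9 libraries falls in each library, for the 34 interferon response genes (coloured) and for all tested genes with a mean of at least 10 CPM (grey). Spleen 2 holds the lowest level of 55.9% of the interferon genes and spleen 1 the highest level of 35.3%.

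Upstream of these genes, type I interferon RNA was scarce and was found mainly in heart. None of 14 alpha and alpha-like interferon genes had a count in any library, and 17 of 21 listed interferon genes were at 0 throughout. Ifnb1, which encodes interferon beta, had 2, 2 and 0 counts in spleen, 0, 0 and 0 in MLN and 1578, 143 and 1265 in heart. That is 8.85, 0.571 and 5.72 CPM in heart, at least 383-fold above the level that 3 counts per library would give in MLN, and at least 239-fold without heart 1. The edgeR adjusted p was 0.133 against spleen and 0.0779 against MLN, and over 18 alternatives they ran as high as 0.427 and 0.288, and Ifnb1 was called in 2 of these, DESeq2 and limma-voom. Ifng, the gene of interferon gamma, was at 25.3, 66.9 and 13.1 CPM in spleen, 10.7, 213 and 4.87 CPM in MLN and 201, 77.0 and 353 CPM in heart. MLN library 2 fell in the heart range. Ifnk reached 32 counts in heart 1 and Ifnz 25 counts in MLN 2, and neither was tested.

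Of 11 genes of interferon receptors and proximal signalling, 10 were tested and 1 was called, against MLN, where 1.38% of all genes were called. Jak2, a kinase of the interferon gamma receptor and of cytokine receptors, was at 151, 247 and 133 CPM in spleen, 68.0, 92.4 and 115 CPM in MLN and 394, 449 and 477 CPM in heart. It rose 4.79-fold in heart over MLN (log2 2.26, SE 0.36, edgeR adjusted p = 0.0333), a call that held in 9 of 18 alternatives, with a highest adjusted p of 0.163. It held in 3 of 9 settings with a library removed. Against spleen its edgeR adjusted p was 0.121. Ifnar2, a chain of the type I receptor, stood at 262 ± 47.4 CPM in heart and 161 ± 29.1 in MLN (edgeR adjusted p = 0.307).

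Of 59 other type I interferon response genes in the table, 57 were tested. Against spleen 2 were called higher in heart and 0 lower, where edgeR called 0.789% of all genes. Against MLN 3 were called higher and 0 lower, where 1.38% of all genes were called. DESeq2 called 9 higher and 1 lower against spleen and 7 and 1 against MLN, where it called 11.9% and 14.0% of all genes. At an unadjusted p below 0.05, 10 were higher and 2 lower against spleen (17.5% and 3.51%). Of all genes, 9.01% were higher in heart and 13.6% differed in either direction. Against MLN 9 were higher and 5 lower (15.8% and 8.77%, against 10.3% and 5.23% of all genes). The medians of the list were -0.02 and -0.19 on the log2 scale. Ifitm2, a membrane protein that blocks virus entry, was at 59.5, 95.6 and 55.2 CPM in spleen, 60.9, 36.6 and 28.0 CPM in MLN and 997, 326 and 1006 CPM in heart. It rose 11.1-fold over spleen (edgeR adjusted p = 0.0398) and 18.6-fold over MLN (edgeR adjusted p = 0.0230). Its relative Ifitm3 was at 2351, 552 and 1999 CPM in heart and rose 14.1-fold over MLN, from 116 ± 73.0 CPM (edgeR adjusted p = 0.0479). Ifi205, of the HIN-200 family of DNA-binding proteins, was at 1321, 215 and 646 CPM in heart against 33.1 ± 12.8 in spleen and 39.1 ± 16.6 in MLN, with edgeR adjusted p of 0.0415 and 0.0386. All 3 were lowest in heart 2 among the heart libraries, and none of their calls held in every alternative. Against spleen Ifitm2 and Ifi205 were called in 8 and 7 of 18, with highest adjusted p of 0.245 and 0.175. Against MLN, Ifitm2, Ifi205 and Ifitm3 were called in 11, 9 and 5 of 18, with highest adjusted p of 0.140, 0.130 and 0.172. With 1 library removed, 9 settings in all, Ifitm2 and Ifi205 were called in 1 and 0 against spleen, and Ifitm2, Ifi205 and Ifitm3 in 4, 2 and 0 against MLN.

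The lists of interferon gamma, induction and negative regulator genes gave 0 calls by edgeR in each comparison of heart. Of 26 genes tested that are associated with interferon gamma, heart against MLN gave 2 higher and 6 lower at an unadjusted p below 0.05 (7.69% and 23.1%, against 10.3% and 5.23% of all genes). Heart against spleen gave 0 higher and 2 lower (0% and 7.69%). Of all genes, 9.01% were higher in heart than in spleen at that threshold, and 13.6% differed in either direction. DESeq2 called 1 higher and 4 lower against MLN, and limma-voom 1 lower, where they called 14.0% and 8.02% of all genes. The proteasome subunit Psmb8 stood at 243 ± 34.7 CPM in heart and 530.3 ± 56.0 in MLN (edgeR adjusted p = 0.104), the guanylate-binding protein Gbp8 at 245 ± 42.4 and 660.4 ± 267 CPM (edgeR adjusted p = 0.110), and the subunit Psmb9 at 66.8 ± 9.90 and 148 ± 24.9 CPM (edgeR adjusted p = 0.118). Of 15 genes of the induction pathway, 2 were higher and 1 lower at an unadjusted p below 0.05 against MLN (13.3% and 6.67%, against 10.3% and 5.23% of all genes). Against spleen there were 0, against 13.6% of all genes in either direction. The kinase gene Tbk1 had the lowest p, at 104 ± 8.74 CPM in heart and 39.5 ± 3.01 in MLN (edgeR adjusted p = 0.164). Among 12 negative regulators, 2 were higher and 1 lower against MLN at that threshold (16.7% and 8.33%, against 10.3% and 5.23% of all genes). Against spleen there was 1 in each direction (8.33% each), where 9.01% of all genes were higher in heart and 13.6% differed in either direction. The lowest p in both comparisons was that of Trex1, an exonuclease that removes cytosolic DNA (edgeR adjusted p = 0.0857 against MLN and 0.116 against spleen). Its level was 92.5 ± 27.4 CPM in heart, 31.2 ± 7.86 in MLN and 34.5 ± 2.54 in spleen. DESeq2 called Tbk1 against MLN and Trex1 in both comparisons, and limma-voom called Trex1 against MLN.

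**Figure D5:**
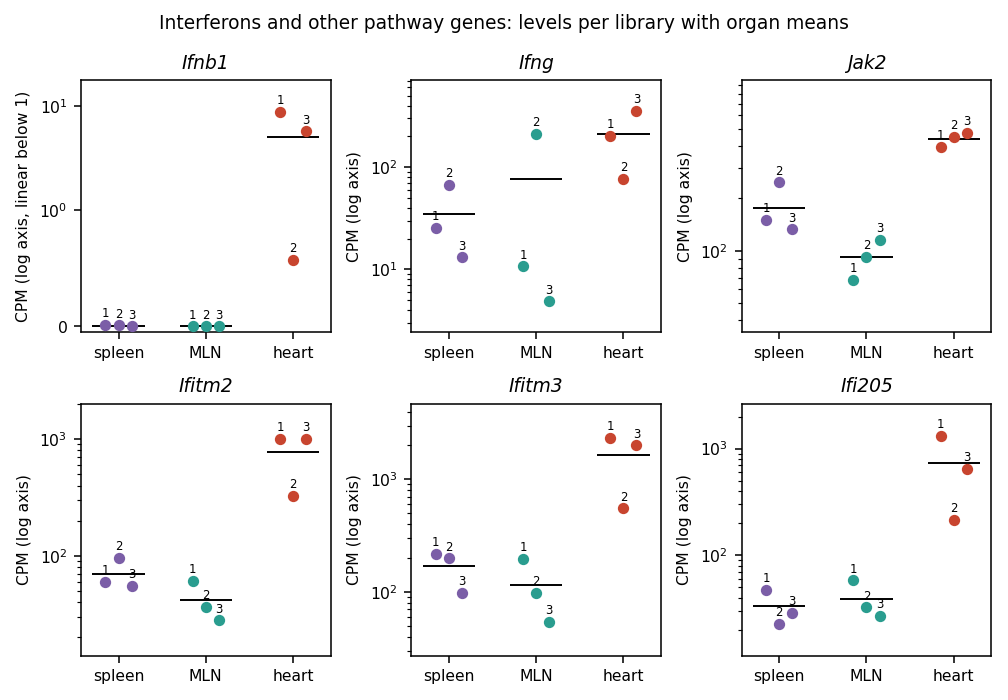
CPM of the interferon genes Ifnb1 and Ifng and of Jak2, Ifitm2, Ifitm3 and Ifi205 in each library (points, numbered by library), with the mean of each organ as a line; axes are logarithmic, that of Ifnb1 linear below 1. Heart libraries lie above all lymphoid libraries for each gene except Ifng, and heart 2 is the lowest heart library for each except Jak2.

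Markers of other cells moved with the heart libraries. The 17 rows of 16 macrophage and monocyte markers summed to 0.770 to 1.04% of counts in heart, 0.112 to 0.336% in spleen and 0.0331 to 0.0833% in MLN, and 0 of them lacked counts throughout heart. Fibroblast markers took 0.295 to 1.60% in heart and at most 0.00191% elsewhere, with Lum and Pdgfra at 0 in MLN. Neutrophil markers took 0.0589 to 0.323% in heart and at most 0.00452% elsewhere, with 2 of 12, Camp and Elane, at 0 in heart. B cell markers took 0.380 to 0.541% in spleen, 0.0871 to 0.319% in MLN and 0.00463 to 0.0138% in heart, where Blk was at 0. Markers of plasmacytoid dendritic cells, the blood cells known for making interferon, took 0.0144 to 0.0459% in heart, 0.00514 to 0.0291% in spleen and 0.0173 to 0.0222% in MLN. That list holds 9 genes, among them the member Bst2. Its genes did not move together. Siglech was at 4.26, 2.75 and 7.60 CPM in heart, at 0, 0 and 0.968 CPM in spleen and at 0 in all 3 MLN libraries, while Spib was at 0 in heart and averaged 9.90 CPM in spleen and 8.33 in MLN. Pacsin1 averaged 0.543 CPM in heart, 7.99 in spleen and 4.52 in MLN. Pan-T markers took 0.184 to 0.454% in heart and 0.431 to 0.784% in the lymphoid libraries. The part of these cells in the levels of Ifih1, Ifit2, Rsad2, Ifnb1, Jak2, Ifitm2, Ifitm3 and Ifi205 in heart was not tested.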

How the data were processed

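The file deposited by the authors holds unnormalized whole-number counts of reads, with 1 column for each of the 9 libraries. Per the labels' protocols, Tregs were purified in 2 rounds, by magnetic beads and by flow cytometry, and cDNA was amplified with a SMARTer low-input kit. Per the submitters' processing notes, CASAVA 1.8.2, HISAT2, HTSeq 0.6.0 and build mm10 were used. Aligner settings and strand option were not given in the sources used here. All 9 columns were used, and 0 were left out. Of 49510 gene identifiers, 49412 were found in GENCODE vM21, which gave coordinates and lengths.

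In R 4.3.3, edgeR 4.0.16 filtered the counts (minimum count 10, minimum total 15), scaled libraries by TMM and fitted 1 quasi-likelihood model to all 9 libraries with a term per organ and 6 residual degrees of freedom. Tests were two-sided, p-values were adjusted by Benjamini-Hochberg over all 16609 tested genes, and a gene was called below 0.05. A count of 0 allows up to 3 counts, which covers counting error only, since PCR copies are not independent molecules. No pair of libraries of an organ agreed within sampling noise. The alternatives were RLE and total-count scaling, DESeq2 1.42.0, limma-voom (limma 3.58.1), no filter, a stricter filter (minimum count 100), only the 2 organs compared, a replicate block, each library left out in turn, and 3 libraries left out together.

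The 34 members, the pathway and marker lists and the alternatives were chosen with earlier results of these data known. Values per library are given for members with an unadjusted p below 0.05 in a comparison, for those at least 2-fold apart without overlap, and for the 5 highest per kilobase. Of pathway lists, called genes and otherwise up to 3 with the lowest p are named. A few other members were given values after these were seen. Ifnk and Ifnz are named for reaching 10 counts.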

Additional observations from a re-analysis of the deposited data

How the results depend on the processing

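The count of 34 members called was 0 in each comparison in edgeR and stayed 0 under RLE scaling, total counts, no filter, 2 organs alone, each library left out in turn (0 to 0) and 3 libraries left out. DESeq2 called 2 for heart versus spleen, 3 for heart versus MLN and 1 for MLN versus spleen. For heart versus spleen limma-voom called 1 and the stricter filter 1. DESeq2 also called more genes overall (1883, 2211 and 779). With the replicate block 0 members were called in each comparison, and the median log2 differences were 0.55, 0.50 and 0.34. The numbers were not taken to pair the libraries, since the labels do not say that a number marks an animal or day. Deviations of same-numbered libraries correlated from -0.21 to 0.22, and those of other pairs from -0.30 to 0.43, which does not decide on pairing. The libraries that stood apart deviated together across organs. The correlation was 0.43 for spleen 3 and heart 2, 0.22 for MLN 3 and heart 2 and 0.22 for spleen 3 and MLN 3. What they share was not tested. Leaving out 1 library moved the median from -0.12 to 1.11 against spleen, from 0.34 to 0.51 against MLN and from -0.29 to 0.81 for MLN over spleen. The members not overlapping ran from 5 to 16, from 11 to 17 and from 1 to 16. The 17 arose without MLN 3 (13 above, 4 below, against 18.3% and 16.6% of all genes) and without heart 2 (12 and 5, against 21.4% and 16.2%), and both 16 without spleen 1. Scaling by total counts shifted the median of all genes to -0.24 against spleen and -0.10 against MLN, with member medians of 0.07 and 0.26. No difference of Ifit2, Ifih1, Oasl1, Isg15, Samhd1 or Usp18 with an unadjusted p below 0.05 changed direction in any of the 18 settings. The causes of these shifts were not tested. Among the members only Mx1, Oas3 and Stat2 had a count of 0, all in spleen 2, and a missed threshold does not show equal levels.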
